A study of Mus musculus with 24 samples.

Results

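The BCL2 family genes described here are 8 of the 24454 genes in the count table, taken by their Entrez identifiers. They comprise the anti-apoptotic genes Bcl2, Bcl2l1 (encoding BCL-XL) and Mcl1, the effector Bak1, and the BH3-only genes Bcl2l11 (encoding BIM), Bid, Bmf and Hrk. All 8 passed the filter on low counts, which kept 16317 genes. The samples were organ of Corti (OC) explants, the sensory epithelium of the cochlea with its hair cells (HCs) and supporting cells, dissected from C57BL/6N mouse pups of both sexes at postnatal day 5 and kept for 24 h in culture before treatment. They were then cultured without drugs (CTRL), with 50 µM gentamicin (GM), an aminoglycoside antibiotic that damages HCs, with 10 µM pioglitazone (PIO), which activates the nuclear receptor PPAR-γ, or with the 2 drugs together (PIO+GM), for 6 or 24 h. Each of the 8 groups had 3 libraries, each from 6 pooled OCs, and 24 libraries were measured in all. By the methods each treatment was repeated 3 times, without a word on separate litters or days, so p-values measure the spread between these libraries.

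BCL2 family proteins decide whether the outer mitochondrial membrane is opened. The effectors BAK and BAX form pores that release cytochrome c, which activates caspases through the apoptosome. BCL2, BCL-XL and MCL1 bind and hold back the effectors and the BH3-only proteins, and BH3-only proteins engage these guardians or the effectors when a cell is stressed. Much of this control acts on the proteins, which RNA counts do not show.

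Library totals ranged from 7211357 to 15548856 counts, and the rarest of the 8 genes, Hrk, still had 54 counts in its lowest library. At 6 h, 3 libraries stood apart in how counts varied with the GC content of transcripts, with rank correlations between -0.66 and -0.58. The other libraries at 6 h had 0.09 to 0.54, the highest in CTRL replicate 1, which was kept in all values without the 3. The 3 were PIO replicate 2 and PIO+GM replicates 2 and 3, and values without them stand beside the main results at 6 h and between the times. Without them PIO had 2 libraries at 6 h and PIO+GM only replicate 1, so values for PIO+GM without them rest on 1 library at 6 h, which the fit assumes to vary like the other groups. Of the 8 listed HC marker genes, 7 were tested, and their summed level lay between 126 and 425 CPM (counts scaled to library size after TMM normalisation) over the 24 libraries. RNA of Schwann cells, neurons, mesenchyme and macrophages was present too. In such bulk samples, fewer cells of a type and less RNA per cell cannot be told apart.

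Mcl1 had the highest level per kilobase of transcript and Hrk the lowest in the median over all libraries, at 47.3 and 1.89 CPM per kilobase. Between them, Bmf was at 19.2, Bcl2l1 at 14.0, Bcl2 at 13.2, Bak1 at 10.7, Bcl2l11 at 8.36 and Bid at 6.74 CPM per kilobase. This order depends on the scaling by length. In median CPM without it, Bcl2 came second at 96.9, before Bmf at 92.7, and Bcl2l11 at 59.6 ranked above Bcl2l1 at 44.9. The order shifted with time. At 6 h, Mcl1 spanned 53.4 to 80.0 CPM per kilobase and lay above every library of the other 7 genes, while Bcl2l1, Bak1, Bmf, Bid, Bcl2 and Bcl2l11 spanned 5.70 to 24.9 CPM per kilobase in all. Of these 6, every Bcl2l1 library lay above every Bcl2l11 library. At 24 h, Bmf had moved up to 23.8 to 32.6 CPM per kilobase and its highest library reached the lowest of Mcl1, at 32.6 CPM per kilobase. Bcl2, at 13.0 to 20.7 CPM per kilobase, then overlapped with Bcl2l1 but lay above all Bak1 libraries, and Bid lay below all libraries of Bcl2l11, Bak1, Bcl2l1 and Bcl2.

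**Figure D1:**
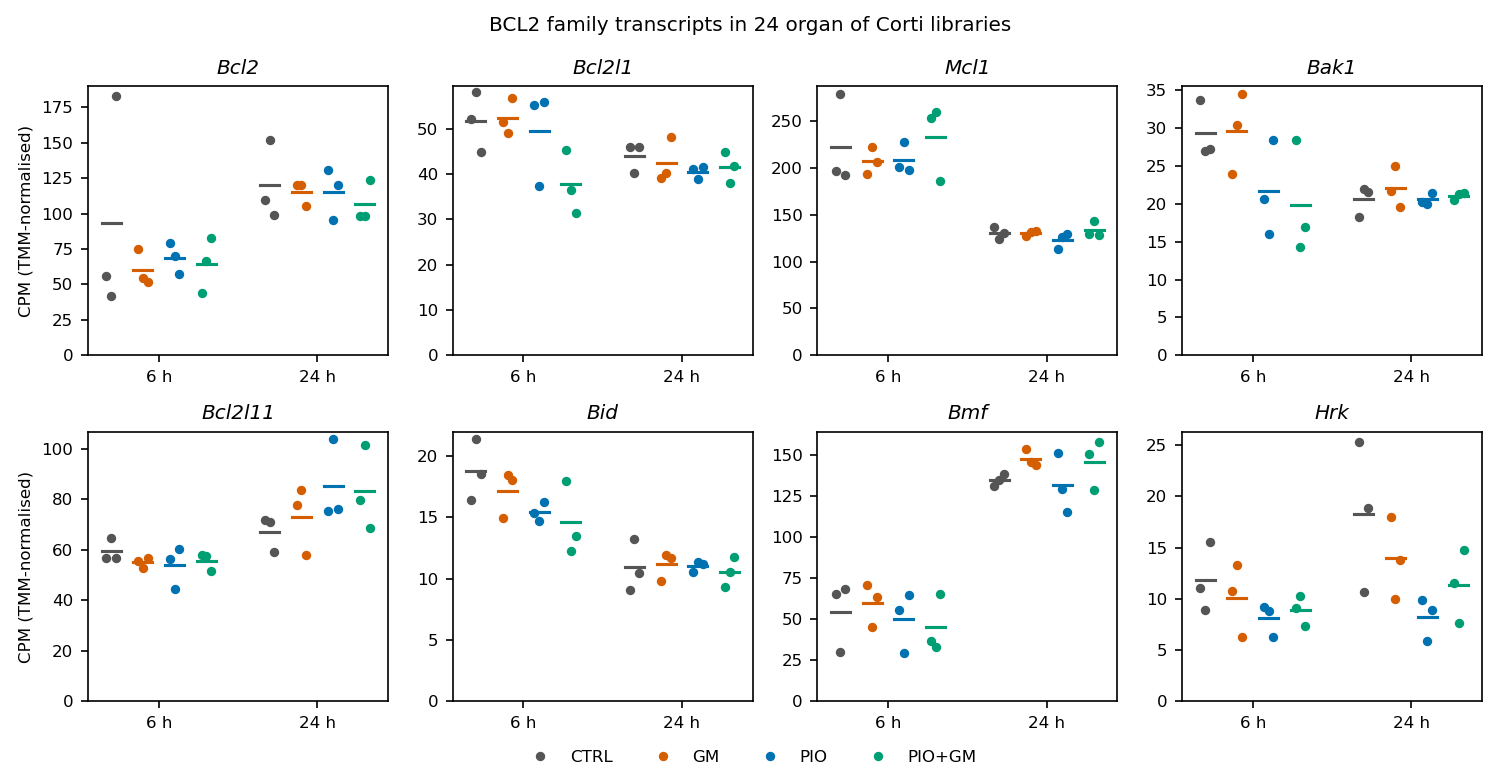
Level of each of the 8 genes in every library, in CPM (y axis, linear from 0), by time and treatment. Each point is 1 library, with replicates 1 to 3 from left to right, and each bar is the mean of 3. The 12 Bmf libraries at 24 h lie above all 12 at 6 h, those of Mcl1 lie below, and 1 CTRL library at 6 h has a Bcl2 level of 183 CPM.

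The first question was how these genes differed between 6 and 24 h of culture, taken as the mean over the 4 treatments. Of the 8 genes, 5 passed the test. Bmf, Bcl2 and Bcl2l11 were higher at 24 h, and Mcl1 and Bid were lower. Of all tested genes, 62.6% passed the same test (edgeR's quasi-likelihood test with Benjamini-Hochberg adjustment over all genes), made up of 31.9% that were higher and 30.7% that were lower, so that 5 of 8 was no more than the share of genes at large. The median absolute log2 fold change was 0.52 for the 8 genes and 0.38 over all tested genes.

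Bmf, whose BH3-only protein binds the anti-apoptotic members and is known for responses to loss of attachment, rose most. At 6 h its level was 65.2, 29.9 and 68.2 CPM in CTRL, 70.6, 44.9 and 63.3 CPM in GM, 55.6, 29.2 and 64.6 CPM in PIO and 36.4, 32.7 and 65.4 CPM in PIO+GM. At 24 h it was 131, 134 and 138 CPM in CTRL, 153, 145 and 144 CPM in GM, 151, 129 and 115 CPM in PIO and 150, 128 and 157 CPM in PIO+GM. Each of the 12 libraries at 24 h was thus above each of the 12 at 6 h, which was the case in 1 direction or the other for 12.4% of all tested genes. This was a log2 fold change of 1.43 ± 0.15 (SE), a 2.69-fold rise, with an adjusted p of 1.10e-07 in edgeR. It passed the test within each treatment as well, at 1.30 in CTRL, 1.31 in GM, 1.40 in PIO and 1.70 in PIO+GM. Without the 3 libraries that stood apart in GC content, the value for Bmf was 1.44 in the mean of treatments, 1.13 in PIO and 2.00 in PIO+GM, the last against 1 library at 6 h with 36.4 CPM.

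Mcl1, which encodes a short-lived guardian of the mitochondrial membrane, fell. Its level at 6 h was 196, 279 and 192 CPM in CTRL, 193, 222 and 207 CPM in GM, 200, 228 and 197 CPM in PIO and 253, 259 and 186 CPM in PIO+GM. At 24 h all 12 libraries were between 114 and 144 CPM with a median of 130, below every library at 6 h. Its log2 fold change was -0.75 ± 0.07 (SE), a 1.68-fold fall, with an adjusted p of 1.90e-08 in edgeR, and it lay between -0.80 and -0.67 in the 4 treatments, with each passing the test. Without the 3 libraries Mcl1 had -0.76 in the mean of treatments, -0.69 in PIO and, against 1 library at 6 h with 253 CPM, -0.92 in PIO+GM. The ratio of Mcl1 to Bmf in CPM was between 2.74 and 9.33 at 6 h with a median of 3.43, and between 0.753 and 1.13 at 24 h with a median of 0.922.

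Both genes also varied in opposite directions between libraries of the same time. At 6 h, 5 libraries, namely replicate 2 of every treatment and PIO+GM replicate 1, had the 5 lowest Bmf levels, from 29.2 to 44.9 CPM, and the 5 highest Mcl1 levels, from 222 to 279 CPM. In the 7 others Bmf was at 55.6 to 70.6 CPM and Mcl1 at 186 to 207 CPM. Over the 12 libraries at 6 h, Pearson's r of log2 CPM was -0.91 and Spearman's rho -0.92, and r was -0.97 over the 10 left when the 2 farthest in Bmf were removed. At 24 h, r was -0.37 and rho -0.39 over 12 libraries, and r was -0.89 for the deviations from the group means. These are descriptions of 1 pair among 28, chosen after the values were seen. Libraries with the same number may share a preparation, which the labels do not say, and no p is given.

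**Figure D2:**
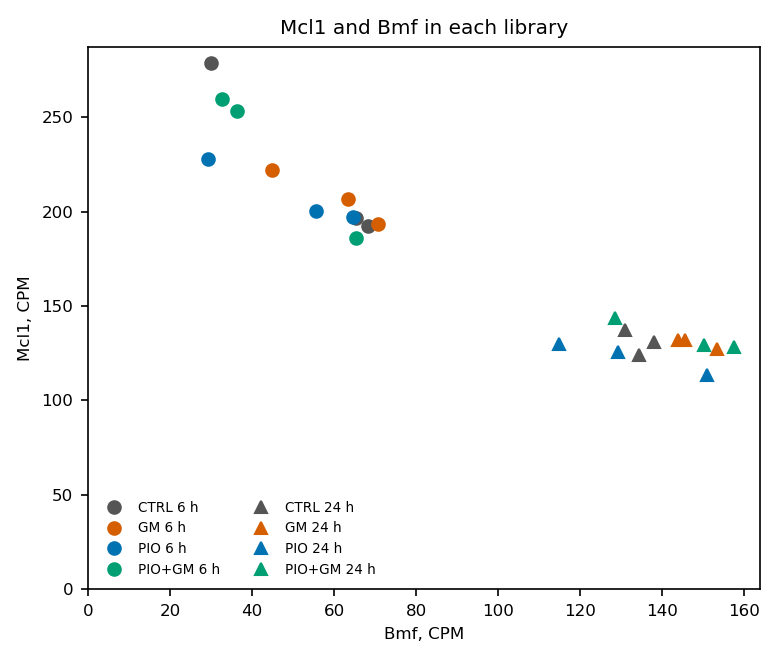
Mcl1 against Bmf in each of the 24 libraries, both in CPM on linear axes from 0. Circles are 6 h and triangles 24 h, with colours for the treatments. The circles run from Bmf 29.2 CPM at high Mcl1 to 70.6 CPM at low Mcl1, and the triangles lie apart at 115 to 157 CPM of Bmf.

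Bcl2l11, the gene of the BH3-only protein BIM, which binds all anti-apoptotic members, ranged from 44.6 to 64.7 CPM at 6 h with a median of 56.8. At 24 h it ranged from 57.9 to 104 CPM with a median of 75.8. The ranges of both times overlapped, and the higher levels at 24 h were in replicate 2 of PIO and PIO+GM, at 104 and 102 CPM. Its log2 fold change was 0.46 ± 0.08 (SE) with an adjusted p of 7.63e-05 in edgeR, and 0.42 without the 3 libraries that stood apart in GC content. Within treatments, Bcl2l11 passed the test in PIO, at 0.66 ± 0.16 with an adjusted p of 0.00587 in edgeR, and in PIO+GM, at 0.58 ± 0.16 with an adjusted p of 0.0101 in edgeR. In PIO+GM the adjusted p in edgeR was 0.0728 without PIO+GM replicate 2 at 24 h. Without the 3 libraries, against the 1 left at 6 h, it was 0.103 at a log2 fold change of 0.53. In PIO, Bcl2l11 had 0.55 without the 3 libraries, with an adjusted p of 0.0398, and 0.65 with an adjusted p of 0.0665 in edgeR, no longer passing, with only the libraries of the groups compared in the fit. It was 0.41 ± 0.16 in GM and 0.18 ± 0.16 in CTRL, which did not pass the test. Without GM replicate 3 at 24 h, the value in GM was 0.55 with an adjusted p of 0.0296 in edgeR.

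Bcl2, the founding anti-apoptotic member, ranged from 41.9 to 183 CPM at 6 h with a median of 61.9. At 24 h it ranged from 95.8 to 152 CPM with a median of 115. The 183 CPM were those of CTRL replicate 3 alone, and the other 11 libraries at 6 h reached at most 82.8 CPM, below every library at 24 h. In that CTRL library, 30 of 14933 genes with a mean above 1 CPM were more than 2-fold above the highest of the other 11 libraries at 6 h, against at most 13 in any other. All 5 listed supporting cell markers were highest there as well, and their sum was 752 CPM. The summed level of the 7 HC genes, 380 CPM, was also the highest of the 12 libraries at 6 h, with 3 of the 7 highest there. The part of these cells in the Bcl2 level was not tested. Between the times, Bcl2 had a log2 fold change of 0.69 ± 0.18 (SE) with an adjusted p of 0.00276 in edgeR, and the value was 0.93 without this library and 0.83 without the 3 that stood apart in GC content. Within treatments it was 0.36 ± 0.36 in CTRL, 0.93 ± 0.37 in GM, 0.75 ± 0.36 in PIO and 0.73 ± 0.37 in PIO+GM, and none of these passed the test in edgeR. Without CTRL replicate 3 at 6 h, Bcl2 passed in all 4 treatments. It then had 1.30 in CTRL, 0.93 in GM, 0.76 in PIO and 0.74 in PIO+GM, with adjusted p of 0.00119, 0.00437, 0.0146 and 0.0142 in edgeR. In GM the adjusted p went from 0.0694 to 0.0330 without CTRL replicate 2 at 6 h. Bcl2 in GM also passed with DESeq2, at an adjusted p of 0.0469, with only the libraries of the groups compared, at 0.00766 in edgeR, and with the GC trend removed, at 0.0497 without and 0.0488 with the replicate block. In PIO+GM it passed with the GC trend removed, at a log2 fold change of 0.96 and an adjusted p of 0.0459 in edgeR, and at 0.0467 with the block as well.

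Bid, whose BH3-only protein links death receptors to mitochondria once it is cut by caspase-8, ranged from 12.3 to 21.3 CPM at 6 h with a median of 16.3 and from 9.05 to 13.2 CPM at 24 h with a median of 10.8. The libraries of both times overlapped only through PIO+GM replicate 2 at 6 h, at 12.3 CPM, and CTRL replicate 2 at 24 h, at 13.2 CPM. Bid thus had a log2 fold change of -0.59 ± 0.08 (SE) with an adjusted p of 5.21e-06 in edgeR, and -0.67 without the 3 libraries that stood apart in GC content. It passed the test in every treatment, from -0.78 in CTRL to -0.47 in PIO+GM. In PIO the adjusted p of 0.0335 rose above the threshold when any of the 6 libraries compared was left out, the highest being 0.101 in edgeR without PIO replicate 1 at 24 h, and in PIO+GM it did so without replicate 1 at 6 h and without replicates 1 or 2 at 24 h, to between 0.0836 and 0.207. The fold change of Bid in PIO+GM was -0.28 on the log2 scale without replicate 1 at 6 h. Both calls were also lost with no filter on low counts, at adjusted p of 0.0823 in PIO and 0.0832 in PIO+GM, and with only the libraries of the groups compared, at 0.0867 and 0.130 in edgeR. Without the 3 libraries the log2 fold changes were -0.52 in PIO and -0.76 in PIO+GM, the latter against 1 library at 6 h. In GM it rose to 0.0553 in edgeR without replicate 2 at 6 h and to 0.0547 without replicate 1 at 24 h.

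Bcl2l1, Bak1 and Hrk did not pass the test of time. Bcl2l1 had a log2 fold change of -0.17 ± 0.08 (SE) with an adjusted p of 0.0561 in edgeR, and Bak1, the gene of a pore-forming effector, one of -0.23 ± 0.11 with an adjusted p of 0.0669. Without the 3 libraries that stood apart in GC content, these values were -0.28 with an adjusted p of 0.000903 and -0.40 with an adjusted p of 0.000588 in edgeR. Both also passed with DESeq2, at adjusted p of 0.0170 and 0.0293, and with the GC trend removed, at 0.00220 and 3.94e-05 in edgeR. Hrk, a BH3-only gene expressed in neurons, had 0.36 ± 0.17 with an adjusted p of 0.0686 in edgeR, and 0.38 without the 3 libraries. Each of these 3 passed the test when certain single libraries were left out. For Bcl2l1 these were PIO replicate 2, CTRL replicate 3 and PIO+GM replicate 3 at 6 h and GM replicate 3 at 24 h, with adjusted p between 0.00930 and 0.0424 in edgeR. For Bak1 they were GM replicate 1, PIO replicate 2 and PIO+GM replicates 2 and 3 at 6 h, with adjusted p between 0.0261 and 0.0498. Without PIO+GM replicate 1 at 6 h, Bak1 had -0.14 with an adjusted p of 0.189 in edgeR. For Hrk they were GM replicate 2 and CTRL replicate 3 at 6 h and replicate 2 of each treatment at 24 h, with adjusted p between 0.0239 and 0.0427. Within CTRL, every Bak1 library at 24 h, from 18.3 to 21.9 CPM, lay below every one at 6 h, from 27.0 to 33.8 CPM. The log2 fold change of Bak1 there was -0.51 ± 0.22 (SE) with an adjusted p of 0.0863 in edgeR. It passed with DESeq2, at an adjusted p of 0.0448, with the GC trend removed, at 0.00312 in edgeR, and without the 3 libraries, at 0.0140, among other alternatives, and in these 3 settings 5012, 5776 and 5952 genes were called, against 4564. In GM, Bak1 passed with the GC trend removed, at an adjusted p of 0.00820 in edgeR, and without the 3 libraries, at 0.0358. Without the 3 libraries Bcl2l1 passed in GM and PIO, at adjusted p of 0.0384 and 0.0130 in edgeR, and in PIO at 0.0346 without PIO replicate 2 at 6 h alone. Counted within treatments, 3 of the 8 genes passed in CTRL and 3 in GM, where 28% and 24.2% of all tested genes did, and 4 each in PIO and PIO+GM, where 29% and 34.6% did.

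**Figure D3:**
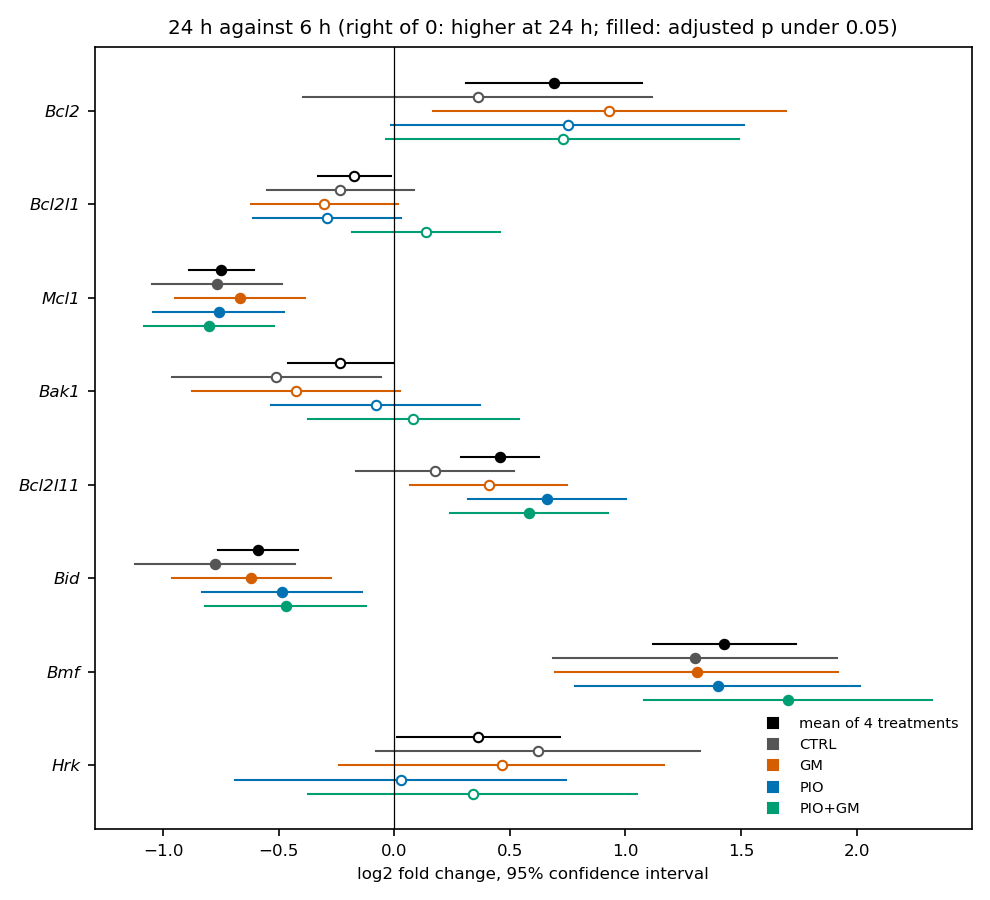
log2 fold change of each gene between 24 and 6 h, as the mean of 4 treatments (black) and within each treatment (colours), with lines for the 95% confidence interval. Filled points have an adjusted p under 0.05, and values right of 0 were higher at 24 h. Mcl1, Bid and Bmf are filled in all 5 rows.

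Some cell type markers also differed between the times. Of all tested genes, 31.9% passed the same test as higher and 30.7% as lower. The summed level of 4 Schwann cell genes went from 272 to 2049 CPM at 6 h to 271 to 731 CPM at 24 h, and that of 5 neuron genes from 32.6 to 211 CPM to 16.8 to 78.9 CPM, with 2 and 4 genes of these lists passing the test as lower. The sum of 4 mesenchyme genes went from 1017 to 2150 CPM to 1350 to 3814 CPM, and 3 of them were higher. Of 7 HC genes, 2 were higher and 1 was lower. Of the 5 supporting cell genes 3 were higher, as were 3 of the 5 macrophage genes. Their part in the values of the BCL2 family was not tested, and a difference in harvest or preparation between the times cannot be told apart from time.

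To show what the 3 genes that rose with time have at their starts, the 250 bases before the annotated start of transcription are printed here from RefSeq (GRCm38.p6), read in the direction of the gene. RefSeq gives 3 such windows for Bmf, 3 for Bcl2l1 and 2 for Bcl2l11, and of these the window nearest the 5′ end of the gene was taken. In the GENCODE annotation, 1 exon overlaps the printed Bmf window, so part of it may be transcribed, and 0 overlap those of Bcl2l11 and Bcl2. Capitals mark matches, on either strand, to GTAAACA, the core of forkhead (FOXO) sites, and GGGCGG, the GC box.
Bmf promoter, chr2:118549687-118549936, minus strand: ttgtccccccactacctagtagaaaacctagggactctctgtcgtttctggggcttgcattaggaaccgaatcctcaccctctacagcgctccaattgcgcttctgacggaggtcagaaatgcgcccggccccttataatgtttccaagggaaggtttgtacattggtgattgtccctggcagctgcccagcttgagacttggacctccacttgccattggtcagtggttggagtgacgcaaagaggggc
Bcl2l11 promoter, chr2:128125788-128126037, plus strand: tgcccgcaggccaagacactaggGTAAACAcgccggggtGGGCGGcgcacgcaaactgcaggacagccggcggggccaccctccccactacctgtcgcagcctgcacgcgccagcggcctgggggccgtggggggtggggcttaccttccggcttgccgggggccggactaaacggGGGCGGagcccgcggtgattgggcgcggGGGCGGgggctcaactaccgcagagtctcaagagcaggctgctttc
Bcl2 promoter, chr1:106714291-106714540, minus strand: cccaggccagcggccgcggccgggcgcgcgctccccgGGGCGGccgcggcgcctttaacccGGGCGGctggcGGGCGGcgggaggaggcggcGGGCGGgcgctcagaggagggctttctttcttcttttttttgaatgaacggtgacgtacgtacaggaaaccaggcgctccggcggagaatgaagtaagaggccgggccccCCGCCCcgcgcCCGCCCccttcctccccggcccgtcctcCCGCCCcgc
The AP-1 motif TGANTCA, the CRE TGACGTCA and the E-box CACGTG were searched too. None of the 3 was found in any of the 13 annotated windows of the 8 genes, against 6.75%, 1.55% and 6.02% of 32851 windows of the same length. The forkhead letters were in 1 of the 13 windows, that of Bcl2l11 printed here, against 3.17% of all windows, and the GC box was in 6 of 13, those of 5 genes, against 32.7%. The 3 Bmf windows held none of the 5 motifs, and no shared motif marked the 3 genes. Such matches describe the letters and no binding.

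The 8 genes lie apart from each other in GRCm38.p6. Bcl2 is at chr1:106538176-106714290, Bcl2l1 at chr2:152758732-152833803, Bcl2l11 at chr2:128126038-128162547, Bmf at chr2:118528757-118549686, Mcl1 at chr3:95656944-95663179, Hrk at chr5:118169764-118189478, Bid at chr6:120893119-120917062 and Bak1 at chr17:27019812-27028627. Exons of an opposite-strand gene overlap those of Bcl2 (D630008O14Rik), Bak1 (Ggnbp1) and Bid (Bcl2l13). Whether the counting used strand is not stated, so reads of these pairs may be mixed.

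The second question was whether GM changed these genes against CTRL. None of the 8 passed the test at either time in edgeR, and none had an unadjusted p under 0.05. DESeq2 called 0 of the 8 as well. Over all genes, 0% passed at 6 h and 0.0123% at 24 h, and 1.49% and 1.67% had an unadjusted p under 0.05. The 8 confidence intervals lay between -1.40 and 0.74 at 6 h and between -1.08 and 0.74 at 24 h, on the log2 scale. The narrowest, that of Mcl1, reached from -0.38 to 0.18 at 6 h and from -0.29 to 0.28 at 24 h, so a 2-fold change of Mcl1 RNA in the whole explant lay outside it.

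At 6 h, the lowest p was that of Bcl2. Its level was 56.2, 41.9 and 183 CPM in CTRL and 75.1, 54.3 and 52.0 CPM in GM, and the groups overlapped. Bcl2 had a log2 fold change of -0.63 ± 0.37 (SE) with an adjusted p of 1.00 in edgeR, and it became 0.31 without the CTRL library at 183 CPM. At 24 h, Hrk had the lowest p, with 25.3, 10.6 and 18.9 CPM in CTRL and 18.0, 10.0 and 13.8 CPM in GM. The log2 fold change was -0.39 ± 0.33 (SE), with Hrk lower in GM in each same-numbered pair. It was -0.08 for Hrk without CTRL replicate 1 and -0.66 without CTRL replicate 2. Bmf was the 1 member whose libraries did not overlap at 24 h, with 131 to 138 CPM in CTRL and 144 to 153 CPM in GM, and Bcl2l11 was the 1 at 6 h, with 56.9 to 64.7 CPM in CTRL and 52.8 to 56.7 CPM in GM. Their log2 fold changes were 0.14 ± 0.29 and -0.11 ± 0.16 (SE). Of all tested genes, 5.66% and 5.23% did not overlap at 24 and 6 h. The summed level of the HC genes was 266 to 425 CPM in CTRL and 188 to 255 CPM in GM at 24 h, without overlap, and none of these genes passed the test. Otof, at a log2 fold change of -0.79 without overlap, and Slc26a5, at -2.09 with overlap, had an unadjusted p under 0.05 in edgeR. The other HC genes had no such p. The part of HCs in the values of the BCL2 family was not tested.

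The third question was whether PIO changed these genes in the absence of GM. None of the 8 passed the test in edgeR, where 0.337% of all genes did at 6 h and 0.153% at 24 h, and DESeq2 called 0 of the 8. At 6 h, all 8 log2 fold changes were below 0, with a median of -0.21 against 0.00 over all genes, and the share of all genes with an unadjusted p under 0.05 was 15.2%, against 0 of the 8. With the GC trend removed, Bcl2l1 was at 0.08 and Bmf at 0.02, and without the 3 libraries at 0.10 and 0.14. Without CTRL replicate 3 at 6 h, Bcl2 was at 0.48. Bak1 had the lowest p there, with 33.8, 27.0 and 27.2 CPM in CTRL and 20.7, 16.0 and 28.4 CPM in PIO. The log2 fold change was -0.43 ± 0.22 (SE) with an adjusted p of 0.353 in edgeR. The lowest value was that of PIO replicate 2, 1 of the 3 libraries that stood apart in GC content. Without it Bak1 had a log2 fold change of -0.25, without PIO replicate 3 -0.68, and with the GC trend removed -0.20. Bid did not overlap between the groups at 6 h, with 16.4 to 21.3 CPM in CTRL and 14.7 to 16.2 CPM in PIO and a log2 fold change of -0.28 ± 0.16 (SE), and 15.4% of all genes did not overlap.

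At 24 h, Hrk and Bcl2l11 had an unadjusted p under 0.05, as did 9.93% of all genes. Hrk was at 25.3, 10.6 and 18.9 CPM in CTRL and at 9.83, 5.86 and 8.94 CPM in PIO. Every PIO library was below every CTRL library, as was the case in either direction for 22.3% of all genes. Hrk had a log2 fold change of -1.15 ± 0.34 (SE; 95% confidence interval -1.86 to -0.44) with an adjusted p of 0.201 in edgeR. With the replicate number as a block, since same-numbered libraries of both groups deviated together, it was -1.11 with an adjusted p of 0.0383 in edgeR, and Hrk then passed the test, as 241 genes did, against 25 without the block. In each of the 3 pairs, Hrk was lower in PIO. The summed level of the neuron genes was 16.8 to 78.9 CPM in CTRL and 17.5 to 52.4 CPM in PIO, and its part in the Hrk value was not tested. Of the listed markers, only the mesenchyme gene Col3a1 had an unadjusted p under 0.05 in this comparison, at a log2 fold change of -0.74 without overlap.

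Bcl2l11 was at 71.6, 71.0 and 59.0 CPM in CTRL and at 75.3, 104 and 76.3 CPM in PIO at 24 h, and the groups did not overlap. The log2 fold change was 0.34 ± 0.16 (SE) with an adjusted p of 0.498 in edgeR. It was 0.18 without PIO replicate 2, whose 104 CPM was the highest of all 24 libraries. With the replicate block the adjusted p was 0.188, and with the block and the GC trend removed the log2 fold change was 0.43 with an adjusted p of 0.0433 in edgeR, where 1084 genes passed.

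The fourth question was whether adding PIO to GM changed these genes against GM alone. None of the 8 passed the test in edgeR at either time, where 1.32% of all genes did at 6 h and 0.11% at 24 h. At 6 h, 2 of the 8 genes and 25% of all genes had an unadjusted p under 0.05, and DESeq2 called 1 of the 8. At 24 h this held for 0 of the 8 and 7.47% of all, and the 8 confidence intervals lay between -1.002 and 0.65 on the log2 scale.

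Bcl2l1, whose protein BCL-XL protects neurons and other long-lived cells, was at 51.4, 49.0 and 56.7 CPM in GM and at 45.3, 36.4 and 31.5 CPM in PIO+GM at 6 h. The groups did not overlap, which held for 23% of all genes. Bcl2l1 had a log2 fold change of -0.47 ± 0.15 (SE; 95% confidence interval -0.79 to -0.15) with an adjusted p of 0.0907 in edgeR. It passed the test with DESeq2, at an adjusted p of 0.0482, and in edgeR with the replicate block, at 0.0470, without PIO replicate 2 at 6 h, at 0.0311, and without PIO+GM replicate 1 at 6 h, at 0.0138. Of all genes, 1320, 1990, 1642 and 4053 passed under these 4 settings, against 216. The levels under 40 CPM at 6 h were those of the 3 libraries that stood apart in GC content, PIO replicate 2 with 37.4 CPM among them. With the GC trend removed, the log2 fold change was -0.25, with an adjusted p of 0.356 in edgeR. It was -0.21 with an adjusted p of 0.866 when the 3 libraries were left out, which leaves 1 PIO+GM library. Some cell type markers differed in the same comparison, where 25% of all genes had an unadjusted p under 0.05 and 23% did not overlap. Of 7 HC genes, 3 had such a p and did not overlap, Myo7a at a log2 fold change of -0.72, Pou4f3 at -1.27 and Gfi1 at -1.21. So did 1 of 4 Schwann cell genes, Sox10 at -0.70, and these adjusted p lay between 0.0631 and 0.0973 in edgeR. The other HC genes had no such p, and Slc26a5 had a mean of 38.4 CPM in PIO+GM against 31.4 CPM in GM. The summed HC level was 194 to 350 CPM in GM and 203 to 301 CPM in PIO+GM, and that of the Schwann cell genes 743 to 2049 and 272 to 1943 CPM. Their part in the values of Bcl2l1 and Bak1 was not tested.

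Bak1 was at 24.0, 30.4 and 34.6 CPM in GM and at 28.4, 14.4 and 16.9 CPM in PIO+GM at 6 h, and the groups overlapped through PIO+GM replicate 1. The log2 fold change was -0.57 ± 0.22 (SE; 95% confidence interval -1.03 to -0.12) with an adjusted p of 0.125 in edgeR. Without PIO+GM replicate 1 it was -0.94 with an adjusted p of 0.00728 in edgeR, under the setting in which 4053 genes passed. The 3 lowest Bak1 levels of the 24 libraries, 14.4, 16.0 and 16.9 CPM, were those of the 3 libraries that stood apart in GC content. The value was -0.17 with the GC trend removed and, with 1 PIO+GM library left, the one that overlapped GM, -0.07 without these libraries. Among the 8 genes, Bak1 had the transcript with the highest GC content, 57.3%, above that of 87.2% of tested genes. At 24 h, the lowest p was that of Bcl2l11, at 77.6, 83.8 and 57.9 CPM in GM and 79.8, 102 and 68.8 CPM in PIO+GM, with overlap and a log2 fold change of 0.19 ± 0.16 (SE). For Bcl2l11 this was 0.03 without PIO+GM replicate 2 and 0.31 without PIO+GM replicate 3. Among the listed markers, Pou4f3 at -0.97, Gfi1 at -0.87, Col1a1 at -2.94 and Col3a1 at -1.13 had an unadjusted p under 0.05 in that comparison. Each was without overlap, none passed the test in edgeR, and 7.47% of all genes had such a p. No other listed marker did, and their part in the values of the BCL2 family was not tested.

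**Figure D4:**
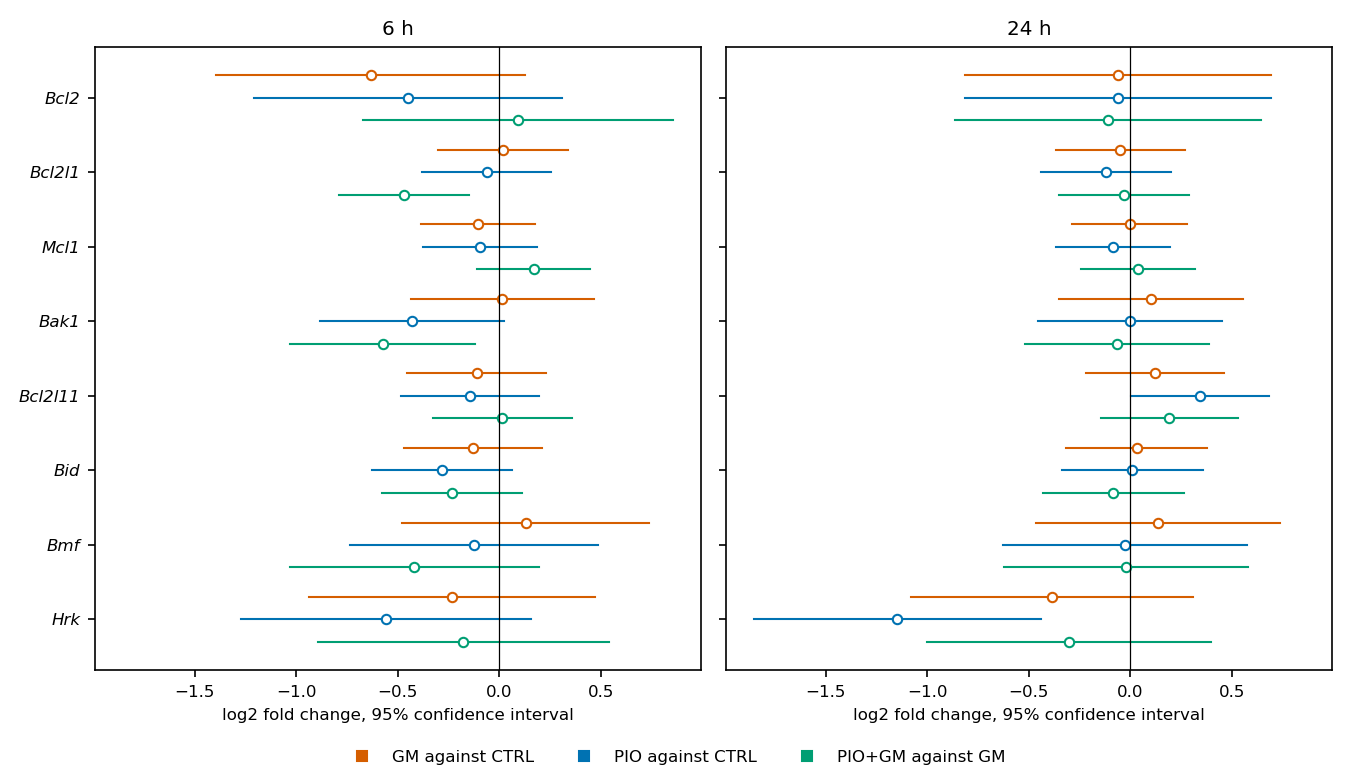
log2 fold change of each gene in the 3 drug comparisons at 6 h (left) and 24 h (right), with lines for the 95% confidence interval. All points are open since no adjusted p was under 0.05. The intervals of Bcl2l1 and Bak1 for PIO+GM against GM at 6 h, and those of Hrk and Bcl2l11 for PIO against CTRL at 24 h, do not reach 0.

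Differences between these effects were tested as interactions. None of the 8 genes passed for the GM effect at 24 h against 6 h, the PIO effect at 24 h against 6 h, or the PIO effect with against without GM at either time, and 0% of all genes did in edgeR. The 1 unadjusted p under 0.05 among the 32 tests of members was that of Bcl2l11 for the PIO effect between times, with a difference of 0.48 ± 0.23 (SE) on the log2 scale and an adjusted p of 0.898 in edgeR, where 4.38% of all genes had such a p. That difference for Bcl2l11 was 0.32 without PIO replicate 2 at 24 h. In the other 3 interactions, 0.766%, 1.8% and 1.21% of all genes had one, in the order given. DESeq2 called 0 of the 8 genes in the 4 interactions. For Hrk, the log2 fold change of PIO at 24 h was -0.30 with GM and -1.15 without, a difference of 0.85 ± 0.47 (SE; 95% confidence interval -0.14 to 1.84), which did not pass the test and was 0.54 without CTRL replicate 1. The comparisons of GM and of PIO with CTRL share the CTRL libraries.

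Other genes of the pathway were read from a list of 33, of which 31 were tested. In none of the 6 drug comparisons did any of them pass the test. Between the times, 10 of 31 were higher at 24 h and 10 lower, beside 31.9% and 30.7% of all tested genes, and the counts by role that follow stand beside the same shares. Among the apoptosome and caspase genes, 4 of 8 were higher and 2 lower, and the lowest p was that of Cycs, the gene of cytochrome c, with a log2 fold change of -1.33 ± 0.12 (SE) and an adjusted p of 2.98e-08 in edgeR. Among 6 other BH3-only and BH3-like genes, 4 were higher and 1 lower, and Bad, which antagonises BCL2 and BCL-XL, had 0.53 ± 0.09 with an adjusted p of 4.54e-05 in edgeR. Of the other effectors, Bax had -0.24 ± 0.08 with an adjusted p of 0.00855, and the second of them did not pass.

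Of the caspase inhibitors and their antagonists, 0 of 5 were higher and 2 lower, among them Htra2, a mitochondrial protease that opposes these inhibitors, at -0.41 ± 0.09 (SE). Of the death receptors and adaptors, 1 of 7 was higher and 3 lower, among them the death receptor gene Tnfrsf10b at -0.48 ± 0.10 (SE). Of the other anti-apoptotic genes, 3 of 5 were tested, 1 was higher and 1 lower. The one that was lower, Bcl2a1d, had a log2 fold change of -1.10 ± 0.29 (SE) at a mean of 0.386 CPM at 24 h, and since it has near-identical copies its count is uncertain.

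**Figure D5:**
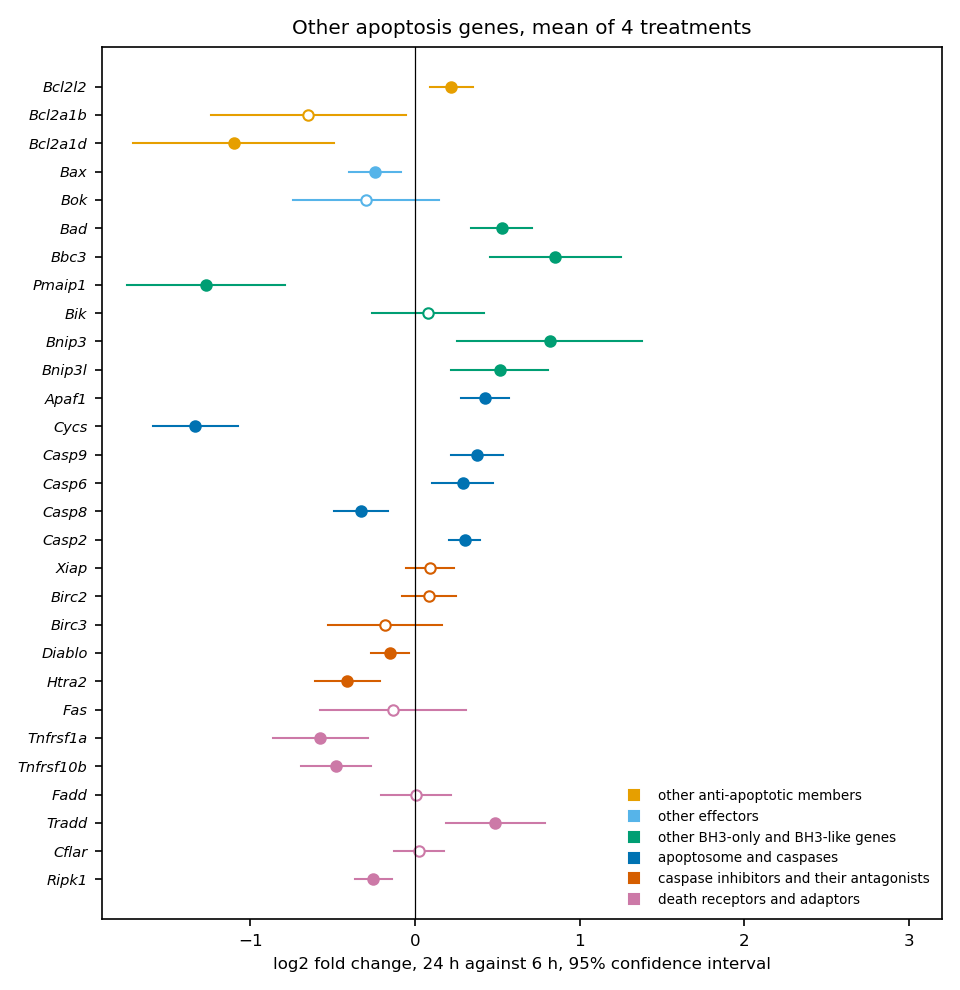
log2 fold change between 24 and 6 h, as the mean of 4 treatments, for other apoptosis genes tested, coloured by role, with lines for the 95% confidence interval. Filled points have an adjusted p under 0.05, and values right of 0 were higher at 24 h. Cycs has the lowest value, -1.33.

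The genes whose log2 CPM followed each of the 8 most closely over the 24 libraries, by Pearson's r, are given as a description, since all libraries share the split between times. For Mcl1 they were Hbegf, Gfpt2 and Srxn1, with r of 0.98, 0.97 and 0.97. For Bmf they were Ing4, Rec8 and Rab3d, with r of 0.98, 0.97 and 0.97. For Bcl2 they were Raver2, 4930426D05Rik and Rgs9, with r of 0.95, 0.94 and 0.94. For Bcl2l11 they were Tmem131l, Hjurp and Arhgef39, with r of 0.94, 0.92 and 0.91. Bid was followed by Prmt1, Npm3-ps1 and Pus1, with r of 0.94, 0.93 and 0.93, and Bcl2l1 by Capns1 and Atp6v0c-ps2, with r of 0.91 and 0.85. Bak1 was followed by Mbd3, Cttn and Aprt, with r of 0.92, 0.90 and 0.90, and Hrk by Stxbp6, 9230102O04Rik and Tgfb2, with r of 0.86, 0.85 and 0.84. Ranked by Spearman's rho, 2 of these 3 remained for Bcl2, 1 each for Bid and Hrk, and 0 for Mcl1, Bak1, Bcl2l11 and Bmf.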

How the data were processed

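Per the labels and the study's methods, reads of 1 end of stranded total RNA libraries were mapped with STAR, and the submitters' processing notes name build mm10. The authors made the deposited counts with QuasR, as reads starting in any RefSeq exon of a gene. Strand use and multimapping are not given in the sources used here. The table's other column is gene length in bases.

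Of 24454 identifiers, 24374 matched a RefSeq symbol. Counts of all 24 libraries were fitted in R 4.3.3 with edgeR 4.0.16 (TMM, filterByExpr, quasi-likelihood test, 1 mean per group), with a threshold of 0.05 on Benjamini-Hochberg adjusted p over 16317 genes. SEs came from the F statistic. log2 CPM used a prior count of 2. Exact permutation tests of 3 against 3 libraries cannot go below 0.1. DESeq2 1.42.0, Python 3.11.15, pandas 2.3.3, numpy 2.4.6 and matplotlib 3.10.9 were also used, and the procedure was tested on simulated data. At these depths 3 counts were 0.193 to 0.416 CPM, for counting error only.

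The members and lists were chosen with earlier results of these data known. All 8 members are named. Fold changes are given for each with an unadjusted p under 0.05 in a comparison, or else for the lowest p, for at most 6 other apoptosis genes by the lowest p of their group. Pearson's r is given for up to 3 genes most like each member. Results of a few genes are not reported here. Alternatives were library-size or DESeq2 normalisation, other count filters, DESeq2, fewer libraries in the fit, a replicate block, removal of the GC trend (94.3% of tested genes had a GC content) and leaving out each library. Leaving out the 3 libraries with a steep GC trend was added after seeing the data. Same-numbered libraries deviated together in all pairs for PIO against CTRL at 24 h (correlations 0.11, 0.23 and 0.56) and GM against CTRL at 24 h (0.43, 0.59 and 0.72), a hint from the data, since the labels do not say what a number marks.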

Additional observations from a re-analysis of the deposited data

How the results depend on the processing

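The counts of members called that moved by over 1.5 times follow, beside the counts of all genes called under the same setting. For PIO+GM against GM at 6 h, 0 members and 216 genes were called in edgeR, 1 and 1320 by DESeq2's Wald test, 1 and 1990 with the replicate block, and 0 to 2 members and 4 to 4053 genes when 1 library was left out. For PIO against CTRL at 24 h, 0 members and 25 genes were called, 1 and 241 with the replicate block and 2 and 1084 with the block and the GC trend removed. Between the times in GM, 3 members and 3954 genes were called, 5 and 5178 with the GC trend removed, 6 and 5756 with the block as well, 5 and 5565 without the 3 libraries with a steep GC trend, and 2 to 4 members and 2164 to 4706 genes when 1 library was left out. Between the times in PIO+GM, 4 members and 5646 genes were called, and 2 to 5 and 3453 to 6450 when 1 library was left out. The count stayed between 3 and 4 in CTRL and between 3 and 5 in PIO. With 1 library left out, the log2 fold change of Bcl2 for GM against CTRL at 6 h lay between -0.98 and 0.31, and its GM effect between times between -0.36 and 0.92; both turned only without CTRL replicate 3 at 6 h.

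In the mean of 4 treatments, the 5 calls were 5 to 7 under 33 alternatives. Bcl2l1, Bak1 and Hrk passed the test under 10, 10 and 6 of them. The replicate block changed no call of a member in the other drug comparisons. All 3 same-numbered pairs correlated above 0.1 for GM and PIO against CTRL at 24 h alone, and elsewhere at least 1 pair correlated at 0.1 or less. This split rests on that limit. For PIO+GM against GM at 24 h the correlations were 0.03, 0.39 and 0.63, so likeness by number was not confined to the comparisons with CTRL. Depth limits Hrk most, with 54 to 288 counts a library, and with 3 libraries a group the widest confidence interval of a drug comparison reached 0.76 to either side on the log2 scale.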
